A study of Mus musculus with 9 samples.

Results

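The comparison described here sets apical resection against sham surgery in the heart of newborn mice, and its members are the genes measured in both groups. Genes were kept where the mean over the 6 compared libraries was at least 1 FPKM (fragments per kilobase of transcript, scaled for library size). Genes that the authors' software had marked as having too many fragments to quantify were left out. This left 13074 of 14479 listed genes. RNA was taken from the apical part of the ventricle of CD-1 mice, an outbred stock, on postnatal day 2, the day after surgery on postnatal day 1. The sham group (3 libraries) had surgery without resection, the resection group (3 libraries) lost the tip of the ventricle, and a further group (3 libraries) had the same resection with transection of the left vagus nerve. That last group entered only the estimate of the spread and is otherwise given as side-by-side levels. Whether a library holds the RNA of 1 pup or of several is not in the labels, nor is what the sham operation included. Nor do they say how the apical piece was matched between resected and sham hearts, and p-values measure only the spread between these samples.

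The newborn mouse heart can replace an amputated apex for a few days after birth, and loses this ability within its first week of life. Cut muscle first seals with a clot, and blood-borne neutrophils and monocytes then enter, release chemokines, clear dead cells and lay down a provisional matrix. In the same days cardiomyocytes and the supporting cells of the growing ventricle still divide, so transcripts of DNA copying and of cell division are abundant in the normal tissue.

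The median over listed genes lay between 7.52 and 7.85 FPKM in the 6 libraries, and pairs of them correlated with r from 0.868 to 0.948 across genes. Libraries did not group by surgery. Pairs of sham libraries had r from 0.905 to 0.948, and pairs of resection libraries 0.875, 0.878 and 0.893. Each resection library correlated more closely with a sham library: resection 1 with sham 1 (0.924), resection 2 with sham 3 (0.934) and resection 3 with sham 2 (0.9115). Low values rose in whole steps in 3 of the libraries. From these steps 1 FPKM was estimated to stand for 14.2 fragments per kilobase of transcript in sham 3, 7.71 in resection 2 and 10.9 in resection 3, so values well below 1 FPKM rested on a few fragments. No such steps were found in the other 3, whose depth is not known. Y-linked transcripts (Ddx3y, Eif2s3y, Kdm5d and Uty, summed) stood at 258 FPKM in sham 3 and 172 FPKM in resection 3, and under 1 FPKM in the other 4 libraries. Xist, made from the inactive X chromosome, stood at 2.16 FPKM in sham 3, at 131 to 345 FPKM in those 4, and at 41.7 FPKM in resection 3, which thus held both kinds of transcript. The part of this mixture in the results was not tested beyond a fit with a term for Y-linked transcripts, added after the data were seen. That fit called 40 genes higher and 0 lower. Of the 35 genes called without the term, which are described below, 31 passed in it. Mitochondrially encoded transcripts took 51.4% to 59.3% of the summed FPKM in sham and 37.2% to 76.3% after resection. Ventricular cardiomyocyte markers summed to between 27128 and 30200 FPKM in sham and between 18307 and 30515 FPKM after resection, with the ventricular light chain Myl2 at 5322, 5465 and 7766 FPKM in sham and 3425, 4029 and 4259.5 FPKM after resection. Markers of liver, lung epithelium and lymphocytes were low, and none of these 3 lists had a gene that reached the minimum. The lymphocyte list summed to at most 0.0913 FPKM in sham and 1.31 FPKM after resection, the liver list to at most 0.585 and 1.04 FPKM, and the lung list, of which 1 gene was listed, to at most 0.895 and 2.47 FPKM. In the authors' deposited table a further 11 lymphocyte markers had group values of at most 0.238 FPKM in sham and 0.386 FPKM after resection.

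After resection 35 genes were higher than after sham surgery and 0 were lower by limma at an adjusted p under 0.05, which is 0.268% and 0% of tested genes. At an unadjusted p under 0.05 the counts were 482 higher (3.69%) and 294 lower (2.25%). In 826 genes (6.32%) all 3 resection libraries lay above all 3 sham libraries, and in 579 (4.43%) all 3 lay below. The authors' deposited table, made with Cuffdiff, tested 13052 of the 13074 genes kept here. Among these it called 527 genes higher (4.04%) and 253 lower (1.94%) at q under 0.05. It called all 35 genes that limma called, from the same libraries. Of its 527 higher and 253 lower genes, 377 and 162 had resection and sham libraries that did not overlap.

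The distribution of changes was lopsided at its upper end. Over all tested genes the median log2 change was -0.01 on the scale of log2(FPKM + 1), where changes of low genes come out too small, and 48.6% of changes were positive. A change past 1 on this scale was seen upward in 338 genes, of which 248 had groups that did not overlap, and downward in 166 genes, of which 72 did not overlap. Past 2 the counts were 74 upward, 52 without overlap, and 35 downward, 2 without overlap. Of the 80 genes past 2 in either direction that limma did not call, 58 were listed at 0 in at least 1 of the 6 libraries, and 26 were protein-coding. Among the 35 genes called, the log2 change ran from 1.56 to 5.33 with a median of 2.40, and the ratio of group means from 3.17 to 45.6 with a median of 8.52. Their start was often low: 23 had a sham mean under 5 FPKM and 7 under 1 FPKM. These 7, Gpnmb among them, reached the minimum mean of 1 FPKM only through their resection libraries. For such genes, and for list members like them, the filter largely fixed the direction of change in advance.

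**Figure D1:**
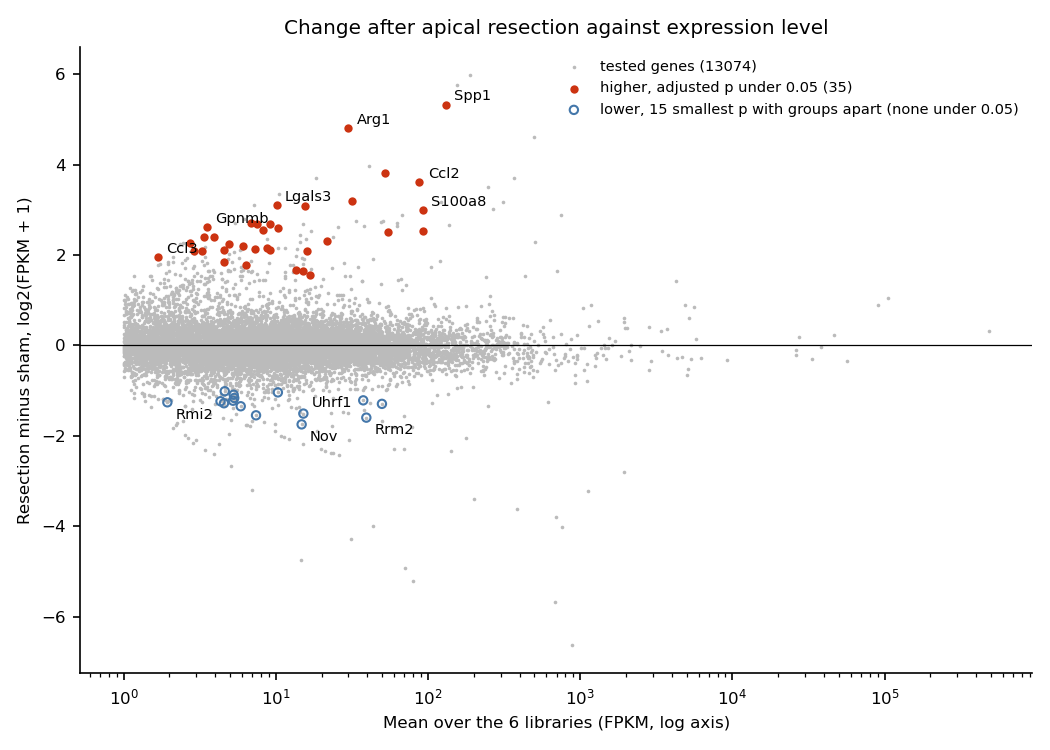
Log2 change of resection against sham (vertical axis, on log2(FPKM + 1)) by mean level over the 6 libraries (horizontal axis, FPKM on a log scale) for the 13074 tested genes in grey. The 35 genes called higher are red and lie between 1.56 and 5.33. The 15 lower genes of smallest p whose groups did not overlap are open blue circles, and none of them passed the threshold. Grey points farther out include genes with large spread between libraries and genes just above the threshold, such as Clu (adjusted p = 0.0536 by limma).

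A set of 6 genes passed the threshold without any 1 library and under each other alternative in which they were tested (Gpnmb was too low for a minimum of 5 FPKM), and 5 of them are described here: Gp49a, Spp1, Ccl2, Gpnmb and Arg1. Spp1 (ENSMUSG00000029304, chromosome 5, 104435118 to 104441050 in GRCm38) encodes osteopontin, a secreted phosphoprotein that macrophages make in injured tissue. It stood at 2.08, 5.22 and 11.5 FPKM in sham 1, 2 and 3 and at 273, 176 and 316 FPKM in resection 1, 2 and 3 (log2 change 5.33, SE 0.52, adjusted p = 0.0051 by limma). Values of 3 libraries are given in this order throughout, sham before resection. The lowest resection library was far above the highest sham library. Arg1 (ENSMUSG00000019987, chromosome 10, 24915221 to 24927484), which encodes the arginase that turns arginine into ornithine and urea, stood at 0.41, 0.478 and 2.96 FPKM in sham and 66.9, 33.5 and 74.9 FPKM after resection (log2 change 4.80, SE 0.53, adjusted p = 0.00587). Sham 3 was the highest of the sham libraries in both genes, and resection 2 the lowest of the resection libraries. Gpnmb (ENSMUSG00000029816, chromosome 6, 49036546 to 49070929), a membrane glycoprotein of lysosome-rich phagocytes, stood at 0.165, 0.201 and 0.363 FPKM in sham and at 7.25, 4.68 and 8.43 FPKM after resection (log2 change 2.62, SE 0.27, adjusted p = 0.0051).

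The gene of the monocyte attractant Ccl2 (ENSMUSG00000035385, chromosome 11, 82035571 to 82037453) stood at 8.56, 10.03 and 19.97 FPKM in sham and 141, 126 and 222 FPKM after resection (log2 change 3.61, SE 0.38, adjusted p = 0.0051). Gp49a and Lilrb4, near-identical neighbours that encode paired immunoglobulin-type receptors of myeloid cells, rose side by side. Gp49a stood at 0.753, 0.921 and 1.64 FPKM in sham and 10.5, 11.2 and 16.3 FPKM after resection (log2 change 2.70, SE 0.26, adjusted p = 0.0051), and Lilrb4 at 0.793, 1.48 and 2.64 and 9.11, 10.5 and 12.1 FPKM (adjusted p = 0.0117). They share a deposited locus, so how the reads were divided between them is uncertain.

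**Figure D2:**
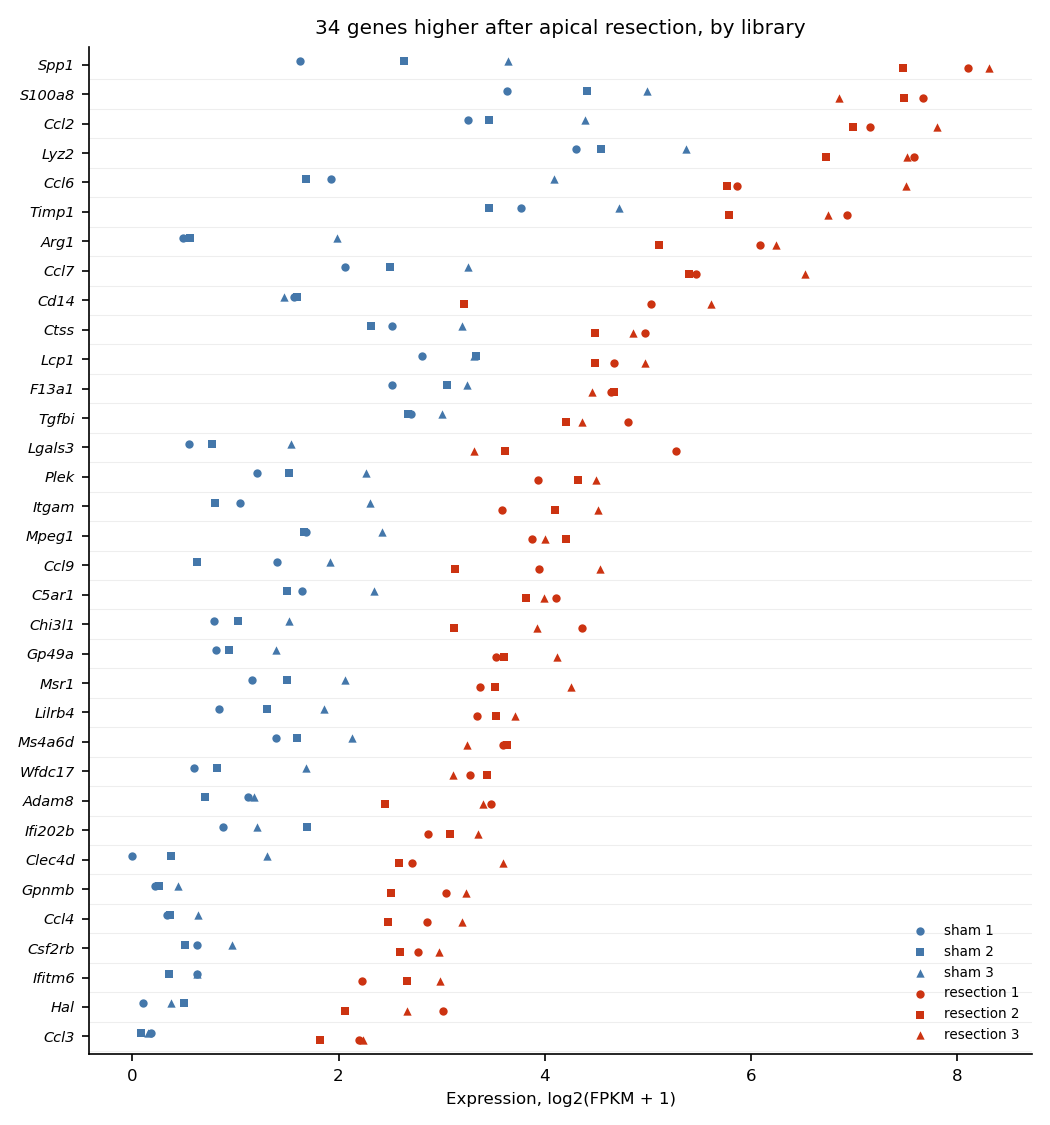
Expression (horizontal axis, log2(FPKM + 1)) of 34 of the 35 genes called higher after resection, ordered by resection mean, in each of the 3 sham libraries (blue) and 3 resection libraries (red). Marker shapes give the library number. In every one of these genes the lowest red point lies to the right of the highest blue point. Sham 3 (blue triangle) is the highest sham library in 29 of the 35.

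Chemokines were prominent among the called genes. Ccl2, Ccl3, Ccl4, Ccl6, Ccl7 and Ccl9 were 6 of 20 tested genes on a list of CC and CXC chemokines and their receptors, against 0.268% of all tested genes. The list had a median log2 change of 1.41, against -0.01 over all genes, 12 members higher at an unadjusted p under 0.05 and 0 lower. Ccl7, a second monocyte attractant, stood at 3.19, 4.64 and 8.53 FPKM in sham and 43.1, 41 and 90.8 FPKM after resection (adjusted p = 0.00897). Ccl4, a chemokine of activated macrophages, was barely detected in sham at 0.266, 0.285 and 0.553 FPKM and stood at 6.25, 4.58 and 8.18 FPKM after resection (adjusted p = 0.00688). Its neighbour Ccl3 stood at 0.133, 0.0585 and 0.114 FPKM in sham and at 3.58, 2.53 and 3.71 FPKM after resection (adjusted p = 0.0228). Ccl6 and Ccl9 are further attractants of myeloid cells. Ccl6 stood at 2.81, 2.21 and 16 FPKM in sham and 57, 53.4 and 179.9 FPKM after resection, with sham 3 and resection 3 each far above the other 2 libraries of their group (adjusted p = 0.0411). Ccl9 stood at 1.64, 0.55 and 2.78 FPKM in sham and 14.4, 7.77 and 22.1 FPKM after resection (adjusted p = 0.0411). Ccl2 and Ccl6 each share with another gene a deposited locus, the transcribed region to which the authors' table assigned them, so overlapping reads may have been divided between them.

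These genes are neighbours in the genome. Of the 35 called genes 8 are on chromosome 11 (22.9%, against 8.55% of tested genes), and 7 of the 8 lie in 1 stretch of 1.67 Mb, from 82035571 to 83706268 in GRCm38. The seventh is Wfdc17, which encodes a small secreted protease-inhibitor-like protein and stood at 0.513, 0.771 and 2.22 FPKM in sham and 8.68, 9.84 and 7.62 FPKM after resection (adjusted p = 0.0254). The ends of the stretch were set by the called genes themselves, at the start of Ccl2 and the end of Wfdc17. Its share of called genes thus follows in part from that choice. The stretch holds 31 tested genes. The 24 that were not called had a median log2 change of 0.13, and 10 of them had a negative change. Ccr2, the receptor of Ccl2 and Ccl7 on monocytes, stood at 0.509, 1.44 and 2.2 FPKM in sham and 5.48, 6.79 and 6.62 FPKM after resection (log2 change 1.68, adjusted p = 0.0536, above the threshold).

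Surface receptors and intracellular proteins of phagocytes followed. On the list of monocyte and macrophage markers 7 of 23 tested genes rose and 0 fell, against 0.268% and 0% of all tested genes. In all 16 were higher at an unadjusted p under 0.05, against 3.69%, and the median log2 change was 1.45. The same shares, with 2.25% lower at an unadjusted p under 0.05, stand beside the list counts that follow. The lists were chosen with earlier results of these data known. The list summed to between 107 and 150 FPKM in the sham libraries and between 346 and 607 FPKM after resection. In bulk tissue more cells of a type and more RNA per cell cannot be told apart. Mpeg1, which encodes the pore-forming protein perforin-2 of macrophages, stood at 2.22, 2.18 and 4.37 FPKM in sham and 13.7, 17.4 and 15 FPKM after resection (adjusted p = 0.00875). Itgam, the integrin chain CD11b shared by monocytes and neutrophils, stood at 1.07, 0.745 and 3.95 FPKM and 11, 16.2 and 21.9 FPKM (adjusted p = 0.0396), and here sham 3 was several times higher than sham 1 and 2. Msr1, a scavenger receptor for modified lipoproteins, stood at 1.23, 1.83 and 3.18 FPKM and 9.34, 10.4 and 18 FPKM (adjusted p = 0.0254). Lyz2, the lysozyme of myeloid cells, was the most abundant of these markers, at 18.8, 22.4 and 40.4 FPKM in sham and 189.9, 105 and 181 FPKM after resection (adjusted p = 0.0167).

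Cd14 and Lgals3 were uneven among the resection libraries. Cd14, which presents bacterial lipopolysaccharide to Toll-like receptor 4, was tight in sham at 1.97, 2.03 and 1.77 FPKM and stood at 31.7, 8.28 and 48 FPKM after resection, lowest in resection 2 (adjusted p = 0.0411). Lgals3, the sugar-binding protein galectin-3, stood at 0.463, 0.713 and 1.9 FPKM in sham and 37.5, 11.2 and 8.92 FPKM after resection, where resection 1 alone held the high value (adjusted p = 0.0372). The macrophage list was not uniform, with 21 positive and 2 negative changes, and most of its 23 tested genes did not pass. Markers that resident macrophages of the heart carry did not pass the test: Mrc1 had a log2 change of 0.12 (SE 0.32), Lyve1 of -0.06 (SE 0.28) and Csf1r, the receptor for macrophage colony-stimulating factor, of 0.63 (SE 0.25), with adjusted p-values of 1, 1 and 0.674. Cx3cr1, the fractalkine receptor, stood at 2.96, 2.94 and 2.23 FPKM in sham and 1.22, 1.3 and 2.16 FPKM after resection (log2 change -0.55, SE 0.31, adjusted p = 1), so its resection libraries lay just below its sham libraries while those of Mpeg1 and Itgam lay above. Emr1, which encodes the macrophage antigen F4/80, stood at 1.56, 1.7 and 2.35 FPKM and 5.04, 4.47 and 5.67 FPKM (adjusted p = 0.0932). Its groups lay apart upward. The authors' deposited table called Emr1 higher (Cuffdiff q = 0.00161), but not Mrc1, Lyve1, Csf1r or Cx3cr1. The groups of Csf1r lay apart upward too, if narrowly, at 4.296, 3.34 and 3.45 FPKM in sham and 7, 4.309 and 8.03 FPKM after resection. These 5 genes were picked with their values in view. Timd4 and Ly6c2, also on the list, had no values per library. In the authors' deposited table they stood at 0.0821 and 0.209 FPKM for sham and at 0.08 and 0.429 FPKM for resection, and neither was tested there.

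The list of ITAM adaptors (membrane proteins that link activating receptors to tyrosine kinases), Fc receptors and inhibitory receptor pairs gave 4 rising genes of 24 tested. Over all tested genes the share was 0.268%. On the list 19 were higher and 0 lower at an unadjusted p under 0.05, against 3.69% and 2.25% of all, and the median was 1.25. Besides Gp49a and Lilrb4 the group held Plek and Lcp1. Plek, or pleckstrin, a substrate of protein kinase C in platelets and leukocytes, stood at 1.31, 1.88 and 3.81 FPKM in sham and 14.3, 18.9 and 21.6 FPKM after resection (adjusted p = 0.00686). Lcp1, the actin-bundling protein L-plastin of white blood cells, stood at 6.01, 9.07 and 8.94 FPKM and 24.5, 21.3 and 30.4 FPKM (adjusted p = 0.0344), and its ratio of means of 3.17 was the lowest of the 35. Both share a deposited locus with other genes. Pattern recognition receptors and C-type lectins had a median of 1.27. Of 21 tested genes 2 rose, and 14 were higher and 1 lower at an unadjusted p under 0.05, against the same shares of all genes. The lectin Clec4d stood at 0, 0.298 and 1.48 FPKM in sham and 5.57, 5.02 and 11.1 FPKM after resection (adjusted p = 0.0396), and Cd14 was the other. Of the Toll-like receptors, Tlr2 was tight in sham at 2.16, 1.95 and 2 FPKM and stood at 6.8, 5.46 and 9.24 FPKM after resection (adjusted p = 0.0536), just above the threshold.

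Further called genes are known from neutrophils and from blood monocytes. S100a8, a subunit of calprotectin, stood at 11.4, 20.3 and 30.9 FPKM in sham and 203, 178 and 114 FPKM after resection (log2 change 2.99, SE 0.39, adjusted p = 0.0117), and unlike most of the 35 it was lowest in resection 3. Its partner S100a9 stood at 4.9, 6.29 and 6.84 FPKM and 57.8, 23 and 55.5 FPKM, lowest in resection 2 (adjusted p = 0.0653, above the threshold). Among 9 tested neutrophil markers S100a8 was the 1 that passed, against 0.268% of all tested genes. At an unadjusted p under 0.05 the list had 8 higher, against 3.69%, and all 9 had positive changes with a median of 2.04. Some of the 9, such as Csf3r and Il1r2, had a sham mean under 1 FPKM and reached the minimum through their resection libraries. The direction of their change was thus largely fixed by the filter. The summed level ran from 21.3 to 45.6 FPKM in sham and from 219.8 to 312 FPKM after resection. The list held 15 markers, of which 12 had deposited values per library and 9 were tested. The 3 without values per library were close to 0. In the authors' deposited table the granule gene Elane was listed at 0 FPKM for sham and 0.119 FPKM for resection, the granule gene Mpo at 0.0903 and 0.517 FPKM, and Ly6g, a surface marker of mature neutrophils, at 0.22 and 0.0935 FPKM. C5ar1, through which phagocytes sense the complement fragment C5a, stood at 2.13, 1.83 and 4.07 FPKM in sham and 16.2, 13.1 and 14.9 FPKM after resection (adjusted p = 0.00875). Csf2rb, the shared beta chain of the receptors for GM-CSF, IL-3 and IL-5, stood at 0.549, 0.422 and 0.952 FPKM and 5.8, 5.04 and 6.84 FPKM (adjusted p = 0.00686), and it shares a locus with another gene.

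Other leukocyte genes were also among the 35. Ms4a6d, a membrane protein of macrophages, stood at 1.63, 2.03 and 3.37 FPKM in sham and 11, 11.4 and 8.5 FPKM after resection (adjusted p = 0.0464). Ifitm6 and Ifi202b belong to families first described as interferon-induced, and stood at 0.541, 0.283 and 0.543 and 0.838, 2.24 and 1.32 FPKM in the sham libraries, with 3.68, 5.32 and 6.93 and 6.28, 7.47 and 9.24 FPKM after resection (adjusted p = 0.0167 and 0.0483). Of 22 tested genes of the interferon response 0 passed, 1 was higher and 1 lower at an unadjusted p under 0.05, and the median was 0.07. Hal, the histidine-degrading enzyme histidase, stood at 0.0723, 0.411 and 0.301 FPKM in sham and 7.08, 3.19 and 5.33 FPKM once resected (adjusted p = 0.02). Chi3l1, a secreted chitinase-like protein of activated macrophages, stood at 0.727, 1.03 and 1.86 FPKM and 19.6, 7.67 and 14.2 FPKM (adjusted p = 0.0324).

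Among 23 tested matricellular and provisional matrix genes 2 rose (Spp1 and Tgfbi), and among 21 tested proteases and inhibitors of matrix turnover 2 rose (Timp1 among them), with 0 falling in either. Medians were 0.56 and 0.53, with 8 and 9 genes higher at an unadjusted p under 0.05 and 1 and 0 lower. Over all tested genes 0.268% rose past the threshold, and 3.69% were higher and 2.25% lower at the unadjusted p. Timp1, an inhibitor of matrix metalloproteinases, stood at 12.7, 10.03 and 25.3 FPKM in sham and 121, 54.3 and 107 FPKM after resection (adjusted p = 0.0316), with 8 genes in its deposited locus. Tgfbi, a secreted adhesion protein of the matrix, stood at 5.5, 5.38 and 7.04 FPKM and 27.1, 17.4 and 19.5 FPKM (adjusted p = 0.0374). Adam8, a membrane-bound metalloprotease of leukocytes, stood at 1.17, 0.629 and 1.27 FPKM and 10.1, 4.48 and 9.53 FPKM (adjusted p = 0.0324), with 6 genes in its locus. F13a1, the subunit of clotting factor XIII that macrophages and platelets carry and that crosslinks fibrin, stood at 4.74, 7.29 and 8.5 FPKM and 24, 24.5 and 20.9 FPKM (adjusted p = 0.0396). Ctss, the lysosomal protease cathepsin S, stood at 4.73, 3.99 and 8.19 FPKM and 30.3, 21.5 and 27.9 FPKM (adjusted p = 0.0117), and lysosomal and lipid-handling genes as a list had 3 of 33 rising (Ctss, Gpnmb and Msr1) and a median of 0.53.

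Of the 10 higher genes of smallest p that limma did not call, 9 were called higher by the authors' deposited table (4.04% of the genes it tested here). The same libraries were used, so this is not independent support. Il1rn, the secreted antagonist of the interleukin-1 receptor, stood at 0.153, 0.15 and 0.495 FPKM in sham and 5.86, 4.48 and 31.9 FPKM after resection (adjusted p = 0.0536), and Il1r2, the decoy receptor for interleukin-1, at 0.112, 0.0595 and 0.177 FPKM and 3.9, 2.51 and 8.06 FPKM (adjusted p = 0.0536). In both the groups lay well apart, but resection 3 was much higher than resection 1 and 2. Il1b itself, the gene of interleukin-1 beta, showed the same unevenness at 0.0946, 0.176 and 0.494 FPKM and 2.43, 2.14 and 15.2 FPKM (adjusted p = 0.194). Clu, the secreted chaperone clusterin, was by far the most abundant of the 10, at 31.3, 41.6 and 125 FPKM in sham and 496, 294 and 624 FPKM after resection, with sham 3 well above its group (adjusted p = 0.0536). Tnc, or tenascin C, a matrix protein of wounds and of growing tissue, stood at 7.05, 8.91 and 16.2 FPKM and 39.1, 26.5 and 42.1 FPKM (adjusted p = 0.0592). Krt18, a keratin of epithelia and of mesothelium, stood at 3.39, 2.6 and 3.81 FPKM and 21.4, 8.18 and 15.1 FPKM (adjusted p = 0.0592).

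These 10 genes also held Tlr2 and Ccr2, given above, and Csf3r, Emb and Serpina3h. Csf3r, through which neutrophils and their precursors sense G-CSF, stood at 0.27, 0.301 and 0.765 FPKM in sham and 8.26, 2.28 and 5.74 FPKM after resection (adjusted p = 0.0536). Emb, or embigin, a membrane partner of monocarboxylate transporters, stood at 0.98, 1.1 and 2.29 FPKM and 5.44, 5.17 and 6.63 FPKM (adjusted p = 0.0552). Serpina3h, a relative of acute-phase serpin genes that GENCODE M21 annotates as a transcribed pseudogene, stood at 1.61, 2.37 and 3.35 FPKM and 10.5, 9.45 and 9.24 FPKM (adjusted p = 0.0581). Acute-phase and metallothionein genes as a list had 0 of 15 tested genes past the threshold, 9 higher and 0 lower at an unadjusted p under 0.05, and a median of 1.58. Its values leaned on resection 1 and 3: the median over the members, measured from the sham mean, was 1.57, 0.60 and 1.86 in resection 1, 2 and 3. Haptoglobin (Hp) showed this, at 0.909, 0.148 and 0.411 FPKM in sham and 11.7, 2.82 and 16.3 FPKM after resection (adjusted p = 0.084).

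On the lower side the genes of smallest p were mainly those of dividing cells. Of the 15 genes of smallest p whose 3 resection libraries all lay below sham, 0 passed limma's threshold. All 15 were called lower by the authors' deposited table, against 1.94% of the genes it tested here. That table used the same libraries from which the 15 were picked, so it is not independent support. Uhrf1 (ENSMUSG00000001228, chromosome 17, 56303321 to 56323486), which recruits the methyltransferase Dnmt1 behind the replication fork, came closest. It stood at 23.1, 25.3 and 20.1 FPKM in sham and 9.24, 5.31 and 7.96 FPKM after resection (log2 change -1.51, SE 0.26, adjusted p = 0.0506). Rrm2 (ENSMUSG00000020649, chromosome 12, 24708241 to 24714146), the small subunit of the ribonucleotide reductase that makes the building blocks of DNA, stood at 43.1, 74.3 and 62.6 FPKM and 17.9, 18.6 and 19.5 FPKM (log2 change -1.60, SE 0.28, adjusted p = 0.0536), and its 3 resection libraries were within a narrow band well below the lowest sham library. Mcm5 (ENSMUSG00000005410, chromosome 8, 75109569 to 75128439), a subunit of the helicase that opens DNA for copying, stood at 15.5, 15.8 and 11.4 FPKM and 7.06, 5.29 and 6.79 FPKM (log2 change -1.04, SE 0.24, adjusted p = 0.144). Dna2, a nuclease and helicase that trims DNA ends during copying and repair, stood at 6.33, 6.49 and 6.66 FPKM in sham and 2.18, 2.63 and 3.41 FPKM (adjusted p = 0.163).

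Repair and checkpoint genes were next among the 15. Chek1, the kinase that holds cells back when copying stalls, stood at 7.27, 15.3 and 12.1 FPKM in sham and 1.89, 4.22 and 3.68 FPKM after resection (log2 change -1.55, SE 0.33, adjusted p = 0.0932). Rmi2, part of the complex that resolves crossed DNA strands, stood at 3.53, 3.01 and 2.89 FPKM and 0.575, 0.684 and 0.935 FPKM (adjusted p = 0.0611). Neil3, a glycosylase that removes damaged bases in dividing cells, stood at 6.22, 9.01 and 8 FPKM and 2.9, 3.04 and 2.23 FPKM (adjusted p = 0.0794). Ube2t, the ubiquitin-conjugating enzyme of the crosslink-repair pathway mutated in Fanconi anaemia, stood at 5.77, 8.89 and 4.79 FPKM and 1.88, 3.22 and 1.43 FPKM (adjusted p = 0.163). Top2a (ENSMUSG00000020914, chromosome 11, 98992943 to 99024189), the topoisomerase that untangles chromosomes before division, stood at 46.2, 100.3 and 69.1 FPKM and 25.6, 22.7 and 35 FPKM (log2 change -1.30, SE 0.32, adjusted p = 0.191), and Shcbp1, a protein of the spindle midzone, at 5.06, 9.65 and 8.14 FPKM and 2.41, 3.2 and 3.25 FPKM (adjusted p = 0.207). In both, sham 1 was the lowest sham library.

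**Figure D3:**
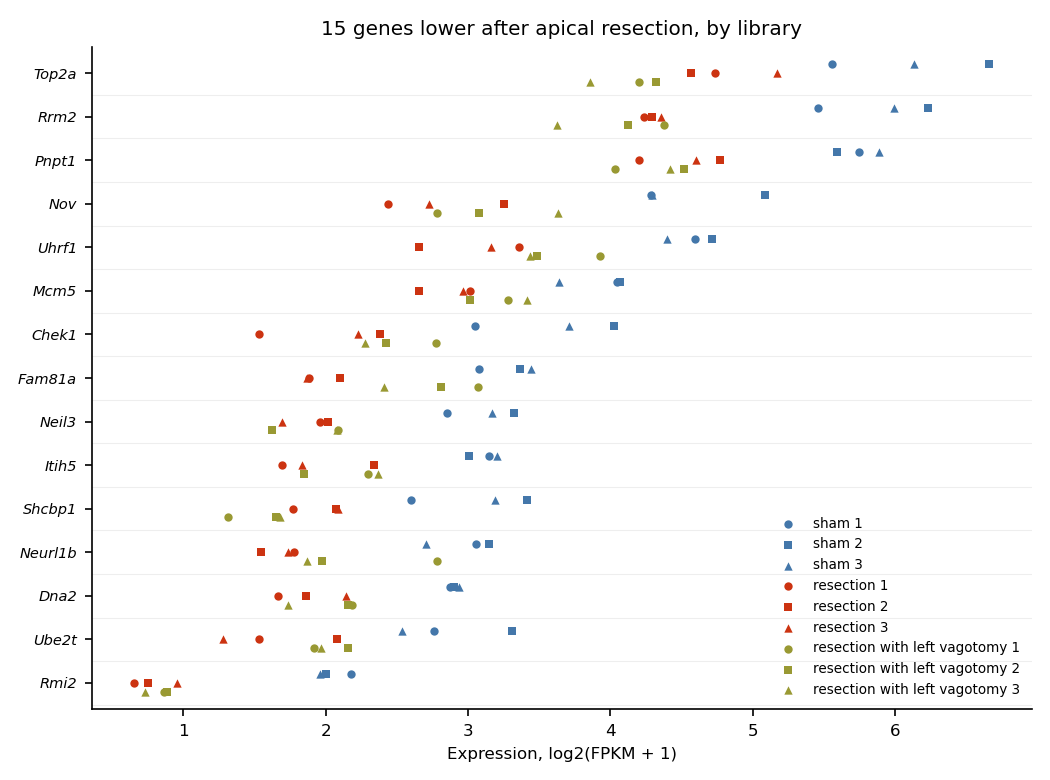
Expression (horizontal axis, log2(FPKM + 1)) of the 15 lower genes of smallest p whose groups did not overlap, ordered by sham mean, in each sham (blue), resection (red) and resection with left vagotomy (olive) library. Marker shapes give the library number. Every red point lies to the left of every blue point of its gene, as the choice of these genes fixes. None of the 15 passed the adjusted threshold.

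The other 5 of these genes are not tied to division. Nov, also called Ccn3, a matricellular protein secreted by vessel and stromal cells, stood at 18.5, 33 and 18.6 FPKM in sham and 4.43, 8.51 and 5.62 FPKM after resection (log2 change -1.75, SE 0.33, adjusted p = 0.0653). Pnpt1, the exoribonuclease of mitochondrial RNA, stood at 52.8, 47.2 and 58.3 FPKM and 17.4, 26.3 and 23.3 FPKM (log2 change -1.22, adjusted p = 0.0874). Fam81a stood at 7.46, 9.32 and 9.89 FPKM and 2.68, 3.29 and 2.64 FPKM (adjusted p = 0.0592). Itih5, a relative of the plasma proteins that stabilise hyaluronan, stood at 7.86, 7.03 and 8.23 FPKM and 2.23, 4.07 and 2.56 FPKM (adjusted p = 0.13), and Neurl1b, a ubiquitin ligase of the Notch pathway, at 7.32, 7.87 and 5.51 FPKM and 2.43, 1.92 and 2.33 FPKM (adjusted p = 0.13).

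As lists, the genes of division lay low almost without exception. All 39 tested genes of DNA replication had negative changes, with 20 lower and 0 higher at an unadjusted p under 0.05 (against 2.25% and 3.69% of all tested genes). In 24 of them all resection libraries lay below sham, against 4.43% of all tested genes, and the median was -0.68. Of 50 tested mitosis and cytokinesis genes 49 had negative changes, and 33 were lower and 0 higher at an unadjusted p under 0.05. In 35 the groups did not overlap, against the same 4.43%, and the median was -0.86. The exception was the checkpoint gene Bub3 (log2 change 0.04, SE 0.25), named after its value was seen. DNA repair and checkpoint genes had 28 of 28 negative changes, 11 lower and 0 higher, and a median of -0.63. The authors' deposited table called 15 of the 39, 37 of the 50 and 9 of the 28 lower and 0 higher, and limma called 0 of each at an adjusted p under 0.05. Mki67, the antigen Ki-67 of cycling nuclei, stood at 6.91, 12.8 and 11.6 FPKM in sham and 2.21, 3.58 and 5.13 FPKM after resection (adjusted p = 0.368). Ccnb1, the mitotic cyclin B1, stood at 9.59, 18.6 and 13.2 FPKM and 5.6, 7.28 and 8.12 FPKM (adjusted p = 0.548).

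The mitosis genes varied more among the sham libraries than the replication genes. Measured from the sham mean, the median over the mitosis list was -0.32, 0.31 and -0.01 in sham 1, 2 and 3 and -0.92, -0.93 and -0.68 in resection 1, 2 and 3. For DNA replication the same values were 0.00, 0.15 and -0.08 in sham and -0.64, -0.91 and -0.64 after resection. All 3 resection libraries were thus below all 3 sham libraries in both lists. Genes of the G1 phase, in which a cell commits to division, lay closer to the median of all genes: 22 of 23 tested genes had negative changes, 6 were lower and 0 higher at an unadjusted p under 0.05, and the median was -0.34. Ccnd1, the gene of cyclin D1, was tight in both groups at 21.8, 24.3 and 24.4 FPKM and 13.5, 13.1 and 13.6 FPKM (log2 change -0.77, adjusted p = 0.46). E2f1, an activator of the genes of DNA copying, stood at 8.47, 6.68 and 4.57 FPKM and 3.64, 1.05 and 2.37 FPKM (adjusted p = 0.331). Inhibitors of the cycle and targets of p53 had 0 of 22 past the threshold, 3 higher at an unadjusted p under 0.05 and a median of 0.13. Cdkn1a, which encodes the inhibitor p21, stood at 10.4, 7.6 and 8.9 FPKM and 26.7, 12.1 and 34.9 FPKM, with resection 2 close to sham (adjusted p = 0.789).

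Promoters are shown for a gene of each group whose members lay on the same side, because regulators of such groups are known from other work: E2F factors bind promoters of DNA copying genes, and the cell cycle homology region (CHR) marks many mitosis promoters. RefSeq promoter sequences (GRCm38.p6, 250 bases before to 50 after the start) were matched for 8478 of 13054 tested symbols. The letters searched on both strands were, for E2F, any of TTTCCCGC, TTTCGCGC, TTTGCCGC and TTTGGCGC, and for CHR, TTTGAA. The 200 bases before the start are printed 5′ to 3′ along the gene, with E2F or CHR letters in capitals for the first pair and the letters GAGGAA, read by the myeloid factor PU.1, in capitals for the third.
Mcm5 (chr8:75109309-75109508, plus strand): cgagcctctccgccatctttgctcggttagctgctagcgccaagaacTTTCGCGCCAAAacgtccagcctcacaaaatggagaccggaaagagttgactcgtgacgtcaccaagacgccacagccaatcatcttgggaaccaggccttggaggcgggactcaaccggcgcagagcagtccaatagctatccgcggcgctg
Top2a (chr11:99024190-99024389, minus strand): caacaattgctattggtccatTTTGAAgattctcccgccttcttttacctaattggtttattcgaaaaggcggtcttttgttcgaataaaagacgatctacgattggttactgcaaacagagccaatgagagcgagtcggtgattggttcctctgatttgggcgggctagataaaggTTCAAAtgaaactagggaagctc
Spp1 (chr5:104434911-104435110, plus strand): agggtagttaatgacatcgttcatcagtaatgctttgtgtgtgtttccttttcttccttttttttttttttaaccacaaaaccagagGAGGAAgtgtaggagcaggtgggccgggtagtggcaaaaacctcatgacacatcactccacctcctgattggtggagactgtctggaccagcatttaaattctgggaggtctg

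In the Mcm5 promoter 2 overlapping E2F matches, 1 on each strand, began 153 and 149 bases before the start. In Top2a a CHR match on each strand began 179 and 23 bases before the start, and 5 matches to CCAAT, the letters read by the factor NF-Y, lay between and beside them. E2F letters were found in 32.3% of the 31 matched DNA replication promoters, 10 in all, against 4.32% of all matched promoters. CHR letters were found in 71.8% of the 39 matched mitosis promoters, against 11.1% of all, and CCAAT in 79.5% of them and 64.5% of the replication promoters, against 39.0%. Of the 35 genes called higher 21 had a promoter. GAGGAA was found in 38.1% of these against 26.5% of all, the letters TGANTCA of AP-1 in 14.3% against 4.45%, and a match to the NF-kB site in 4.76% against 5.01%, that is in 8, 3 and 1 promoters. Among the 15 leading lower genes 12 had a promoter, and E2F letters were found in 1 of them (8.33%) and CHR letters in 2 (16.7%). Neither was found in the 200 bases before the start of Uhrf1, Rrm2 or Chek1. These matches describe letters in a window and say nothing of binding.

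Across lists, myeloid and wound genes stood at one end and division genes at the other. Genes of NF-kB feedback and stress had 0 of 22 past the threshold and 10 higher at an unadjusted p under 0.05, with a median of 0.72. Over all tested genes 3.69% were higher and 2.25% lower at that p. Interleukin and gp130 signalling had 0 of 22, 11 higher and a median of 0.66. Integrins and the actin cytoskeleton of moving cells had 2 of 33 rising (Itgam and Lcp1), 10 higher at an unadjusted p under 0.05 and a median of 0.45. Heme, iron and oxidative stress genes had 0 of 23, 9 higher, 1 lower and a median of 0.50, and TGF-beta, BMP and activin genes 0 of 28, 5 higher and a median of 0.30. The gene of insulin-like growth factor binding protein 5, Igfbp5, was even within groups, at 68.3, 65.9 and 65.4 FPKM in sham and 113, 117 and 126 FPKM after resection, and did not pass (log2 change 0.82, SE 0.22, adjusted p = 0.267). Rcan1, a feedback inhibitor of the phosphatase calcineurin, was tight in sham, at 20.7, 21.2 and 20.9 FPKM and 48.2, 31.6 and 39.6 FPKM (adjusted p = 0.265).

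**Figure D4:**
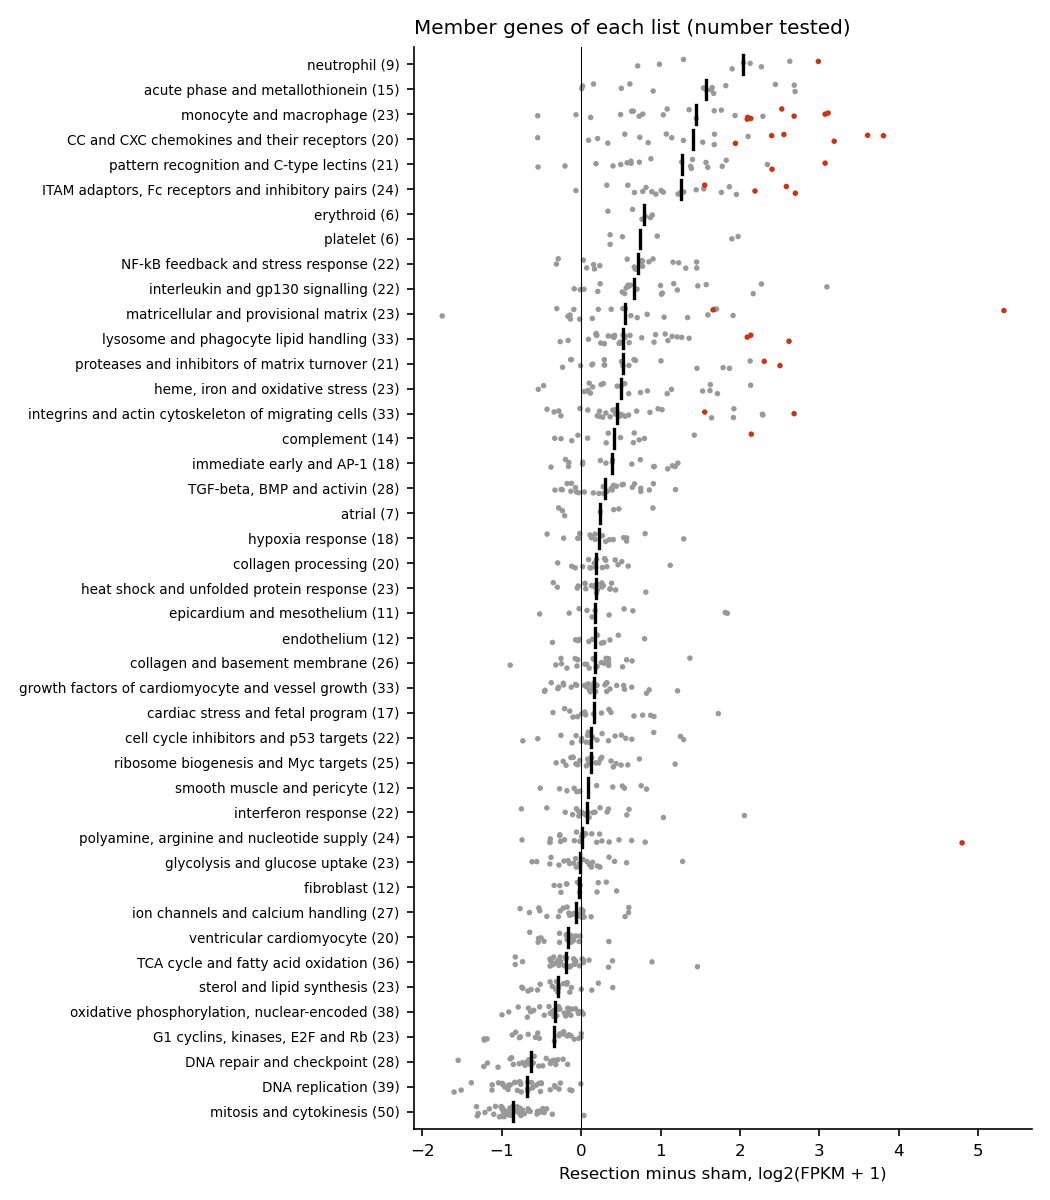
Log2 change of resection against sham (horizontal axis, on log2(FPKM + 1)) for each tested member of the lists with at least 5 tested genes. Points are genes, red where the adjusted p was under 0.05, black bars are list medians, and the number tested is in brackets. Neutrophil markers lie highest, with a median of 2.04, and mitosis genes lowest, with a median of -0.86.

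Lists of the heart's own cells had small median changes, though the cardiomyocyte list leaned downward. Of 20 tested ventricular cardiomyocyte markers 19 had negative changes, while 48.6% of all tested genes had positive ones. None passed, with a median of -0.16 (-0.01 over all genes) and 0 at an unadjusted p under 0.05. In 1 of the 20, Myl2, all resection libraries lay below sham (4.43% of all tested genes). Myh6, the adult-type myosin heavy chain, stood at 3324, 2898 and 3562 FPKM in sham and 1326, 2254 and 3718 FPKM after resection, and Myh7, the fetal-type chain, at 295, 238 and 194 FPKM and 159, 251 and 276 FPKM, so the groups overlapped in both (adjusted p = 1 and 1). Fibroblast, endothelial and smooth muscle markers, 12 tested in each, had medians of -0.03, 0.17 and 0.09 and 0 genes past the threshold. Postn, the matrix protein periostin of activated fibroblasts, stood at 279, 294 and 357 FPKM and 369, 391 and 195 FPKM (adjusted p = 1), lowest in resection 3. Epicardial and mesothelial markers had a median of 0.18 with 3 of 11 not overlapping upward (6.32% of all tested genes), and they stood apart in resection 3, where the median over the members was 1.13 above the sham mean against 0.13 and -0.07 in resection 1 and 2. Krt8, the keratin partner of Krt18, stood at 1.68, 0.934 and 1.61 FPKM in sham and 14.1, 2.89 and 9.57 FPKM after resection (adjusted p = 0.163).

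Blood cells other than leukocytes differed between libraries. Platelet markers summed to between 6.75 and 9.29 FPKM in sham and between 19.3 and 54.1 FPKM after resection, with 0 of 6 past the threshold, 3 higher at an unadjusted p under 0.05 and a median of 0.74. Ppbp, a chemokine stored in platelets, was tight at 0.514, 0.497 and 0.452 FPKM and 4.59, 5.01 and 4.07 FPKM (adjusted p = 0.0611). Erythroid markers summed to between 439.7 and 1355 FPKM in sham and between 796 and 4353 FPKM after resection, and all 6 had positive changes with a median of 0.79 and overlapping groups. The adult beta-globin gene Hbb-bs stood at 863, 289.7 and 892 FPKM and 3850.3, 577 and 649 FPKM, high in resection 1 (adjusted p = 1). The part of blood held in the tissue in the leukocyte results was not tested.

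**Figure D5:**
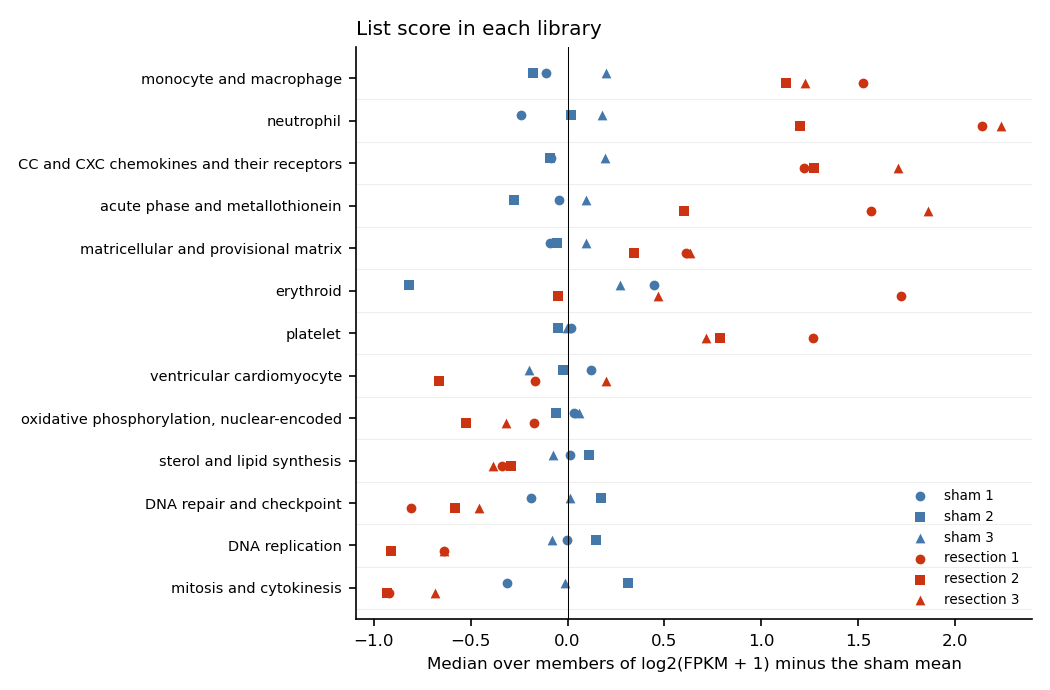
Median over the members of each list of log2(FPKM + 1), measured from the sham mean (horizontal axis), in each of the 3 sham libraries (blue) and 3 resection libraries (red). Marker shapes give the library number. Red points lie beyond all blue points for the first 5 lists and for the platelet, oxidative phosphorylation, sterol, DNA repair, DNA replication and mitosis lists, while the erythroid and cardiomyocyte lists overlap.

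Nuclear-encoded genes of oxidative phosphorylation had 35 of 38 negative changes, 0 past the threshold, 1 lower at an unadjusted p under 0.05 and a median of -0.32. The iron-sulfur subunit gene Uqcrfs1 of respiratory complex III stood at 523, 485 and 542 FPKM in sham and 373, 357 and 297 FPKM after resection (adjusted p = 0.791). The citric acid cycle and fatty acid oxidation list had a median of -0.19, with Ogdh, a subunit of the 2-oxoglutarate dehydrogenase complex, at 474, 456 and 421 FPKM and 205, 316 and 249 FPKM (adjusted p = 0.421). Pdk4, the kinase that shuts off pyruvate dehydrogenase, lay on the other side, at 29.6, 21.8 and 54.8 FPKM and 61.6, 131 and 98.3 FPKM (adjusted p = 0.429). Sterol and lipid synthesis genes had 19 of 23 negative changes, 3 lower and 0 higher at an unadjusted p under 0.05, and a median of -0.29. Among them Idi1, which isomerises the isoprenoid building block, stood at 13, 19.1 and 18.3 FPKM and 10.3, 10.8 and 7.59 FPKM, and Insig1, the sterol-sensing brake on this pathway, at 22.7, 34.3 and 19.6 FPKM and 13, 18.8 and 12.4 FPKM (adjusted p = 0.548 and 0.658). Polyamine, arginine and nucleotide supply had 1 of 24 rising (Arg1), 2 higher and 1 lower at an unadjusted p under 0.05 and a median of 0.01. Glycolysis had a median of -0.02, the hypoxia response of 0.22 and heat shock and unfolded protein genes of 0.18, with 0 genes past the threshold in each.

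Genes of cardiac load and growth showed few differences beyond the spread. Nppb, which encodes the load-induced natriuretic hormone BNP, stood at 29.2, 37.9 and 69.2 FPKM in sham and 274, 141 and 75.7 FPKM after resection, where resection 3 was near the highest sham library (adjusted p = 0.368). Nppa, the gene of the related peptide ANP, overlapped at 61.3, 72.1 and 168 FPKM and 46.2, 77.4 and 134 FPKM (adjusted p = 1). The cardiac stress and fetal list had 0 of 17 past the threshold, 4 higher at an unadjusted p under 0.05 and a median of 0.16. Growth factors of cardiomyocytes and vessels had 0 of 33, 3 higher and a median of 0.16, with Hbegf, a ligand of the EGF receptor family, at 4.97, 6.34 and 5.91 FPKM and 17.5, 9.89 and 7.95 FPKM (adjusted p = 0.441). Collagen and basement membrane genes had a median of 0.17, with Col12a1, a collagen of dense connective tissue, at 2.74, 2.51 and 4.43 FPKM and 12.6, 11.1 and 6.5 FPKM (adjusted p = 0.0932) and Col14a1, a relative of it, at 68.8, 68.2 and 55.4 FPKM and 42.7, 39.3 and 23.2 FPKM (adjusted p = 0.548). In Col12a1 the groups lay apart upward, and in Col14a1 downward.

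Single libraries weighed on the called genes. Sham 3 was the highest sham library in 29 of the 35 (in 34.3% of all tested genes), resection 3 the highest resection library in 20 (30.5%) and resection 2 the lowest in 22 (34.2%). Without sham 2 the count of genes called higher fell to 6, without sham 1 to 14, without resection 3 to 12 and without resection 1 to 18, while without resection 2 it was 56. The 35 genes kept a positive change in every one of these fits.

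Of the genes kept here that the authors' deposited table called higher, the 12 named ones with the largest finite rise were taken. Their Cuffdiff q was 0.00161 in 11 and 0.0441 in Ccl3. Among the 12, 5 passed limma's threshold (Arg1, Spp1, Ccl3, Gpnmb and Hal) and 7 did not. Cxcl5, a neutrophil-attracting chemokine, stood at 0.0312, 0.0935 and 1.3 FPKM in sham and 0.952, 2.41 and 29.9 FPKM after resection, so its groups overlapped and resection 3 held nearly all of the signal (limma's adjusted p = 0.722). Clec4e, a lectin that senses dead cells and mycobacteria, stood at 0.0306, 0.0501 and 0.237 FPKM and 1.58, 1.8 and 6.46 FPKM, again highest in resection 3 (adjusted p = 0.162). F10, the gene of clotting factor X, stood at 0.088, 0.057 and 0.28 FPKM and 4.6, 0.709 and 5.98 FPKM, lowest in resection 2 (adjusted p = 0.368), and Cd300lf, an inhibitory receptor of myeloid cells, at 0.128, 0.173 and 0.334 FPKM and 3.13, 2.23 and 6.74 FPKM (adjusted p = 0.0611). These 4 were picked with their values in view. The other 3 were Il1rn, Il1b and Hp.

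All 3 libraries of resection with left vagotomy held Y-linked transcripts (117 to 164 FPKM summed) and little Xist (0.418 to 1.17 FPKM), unlike most sham and resection libraries, so this difference and the vagotomy cannot be told apart. After resection with left vagotomy, read against the same sham libraries, the 5 genes described above as passing in every fit stood as follows. Spp1 was at 473, 787 and 268 FPKM, Arg1 at 23.6, 42.5 and 85.6 FPKM and Gpnmb at 9.2, 9.77 and 6.22 FPKM, levels that overlapped those after resection alone. Ccl2 was at 52.2, 51.6 and 28.9 FPKM and Gp49a at 5.7, 6.25 and 7.15 FPKM, between the sham libraries and the resection libraries. S100a8 was at 35.7, 60.4 and 32.3 FPKM, also between them, while its partner S100a9 was at 50.8, 157 and 214 FPKM, overlapping resection alone at the low end and reaching above it. On the lower side Uhrf1 was at 14.2, 10.2 and 9.8 FPKM, Rrm2 at 19.8, 16.5 and 11.3 FPKM, Mcm5 at 8.74, 7.06 and 9.68 FPKM and Top2a at 17.4, 19 and 13.5 FPKM, each below its sham libraries.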

How the data were processed

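RNA was sequenced from 9 libraries, 3 per group. The submitters' processing notes name GRCm38, TopHat2 2.0.9, Cufflinks 2.1.1 and Cuffdiff 2.1.1. The authors deposited FPKM values per library with a pseudocount of 1 added, which was subtracted here, and tables of Cuffdiff group FPKM, p-values and q-values. Read counts were not used here. Changes were tested with limma 3.58.1 in R 4.3.3 on log2(FPKM + 1), a log2 scale computed from the deposited values, over all 9 libraries, with a mean-variance trend and Benjamini-Hochberg adjustment over 13074 genes (mean of at least 1 FPKM, threshold 0.05). The fit was tested on simulated data. Low values were searched for whole-fragment steps to estimate depth. Genes named in the text were every gene past the threshold, the 15 lower and 10 further higher genes of smallest p, up to 4 per list by p, and question genes such as Nppa and Myh6. The comparison and the lists were chosen with earlier results of these data known. Positions are from GENCODE M21 (GRCm38). Alternatives were other pseudocounts, filters, scalings, moderation, library weights, a replicate block, the Cuffdiff calls and the omission of single libraries. Some results are not reported here.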

Additional observations from a re-analysis of the deposited data

How the results depend on the processing

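The counts of called genes (35 in all, 35 higher and 0 lower) depended on the processing. A pseudocount of 0.1 gave 62 (59 higher, 3 lower) and one of 5 gave 21, all higher. Fitting only the 6 compared libraries gave 20 (19 and 1), quantile normalization 72 (67 and 5), robust moderation 77 (72 and 5) and library weights 422 (280 and 142). The weights gave sham 2 a weight of 15.5 against at most 2.33 elsewhere. A minimum of 5 FPKM, keeping the genes with too many fragments, and leaving out genes at 0 in a whole group each gave 1 lower gene. The authors' calls among the genes kept here were 780 (527 and 253) at q under 0.05 and 553 (388 and 165) at q under 0.01. Leaving out 1 library gave 7 to 61 in all, 6 to 56 higher and 0 to 5 lower, with the fewest without sham 2 and the most without resection 2. The cause was not tested. Same-numbered sham and resection libraries deviated together with r of 0.5, 0.196 and 0.012, and unlike-numbered ones with r from -0.451 to 0.337. The labels do not say what the numbers mark, so they were not taken as pairs. A fit with the replicate block called 53 genes, 2 of them lower. None of the 35 genes, and none of the 23 lists with at least 5 tested genes and a median past 0.3 in size, changed sign under the alternatives run.

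Genes that changed sign under an alternative did not pass the threshold as reported. Leaving out 1 library at a time moved the log2 change of Actc1 from -0.54 to 0.030, mt-Nd6 from -0.39 to 0.056, mt-Nd5 from -0.54 to 0.15, Tnni2 from -0.62 to 0.25, Uchl1 from -0.30 to 0.83, Nppa from -0.59 to 0.23, Kit from -0.060 to 0.39 and Mrc1 from -0.12 to 0.47. For the others it moved mt-Nd3 from -0.086 to 0.36, Cd1d1 from -0.23 to 0.46, Acta1 from -0.75 to 0.24, Myh7 from -0.26 to 0.14, Lyve1 from -0.26 to 0.15, Bub3 from -0.16 to 0.20, Postn from -0.20 to 0.30 and Stmn2 from -0.16 to 0.11. With library weights the log2 change was 0.35 for Nppa, -0.047 for mt-Nd3, -0.066 for Cd1d1, 0.067 for Myh7, 0.012 for Lyve1, -0.16 for Bub3 and 0.24 for Stmn2, and with quantile normalization 0.0084 for Actc1.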
